A study of Drosophila melanogaster with 24 samples.

Results

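The transcripts of 10 genes for heterochromatin proteins and for the regulator of the small chromosome 4 were followed in Drosophila S2 cells treated with dsRNA against the transcriptional regulators SIN3 and LID. The genes were chosen by symbol, and each was found once among the 14542 gene loci of the deposited tables. All 10 reached 1 FPKM, a read count scaled to the length of the transcript and the size of the library, in every group, and so were among the 8070 loci tested. S2 cells are an embryonic, hemocyte-like cell line cultured without tissue context. The groups were SIN3 KD + LID KD, which received dsRNA against both Sin3A and lid, SIN3 KD (Sin3A dsRNA), LID KD (lid dsRNA) and the control GFP RNAi (dsRNA against GFP, which the cells do not carry). Every group had its dsRNA for 4 days, and each of the 4 was studied with 8.3 mM paraquat for 24 h, an oxidative stress, and without it, which makes 8 groups of 3 biological replicates. Each deposited value combines the 3 replicates of a group, so it has no SD, and the reads behind a single value are not known here, the methods giving only an approximate depth per library.

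Heterochromatin in Drosophila is marked by methylation of lysine 9 of histone H3 (H3K9) and by proteins of the HP1 family that bind this mark. Su(var)3-9 is the main H3K9 methyltransferase of pericentric chromatin, Egg (eggless, with its cofactor Wde, windei) is the one needed on chromosome 4, and G9a is a further enzyme of this kind. POF, named for its painting of chromosome 4, binds RNA of the genes there and stimulates their output. HP1a, Su(var)205's product, binds the same chromosome, and this gene is called HP1a below, after its protein. SIN3 is the scaffold of a histone deacetylase complex, and LID, also called KDM5, is a demethylase of trimethylated lysine 4 of histone H3 that associates with it.

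In the dm3 coordinates of the deposited tables, 5 of the genes lay on the second chromosome. By the bounds of their loci, Pof lay at chr2R:20556901-20575704, egg at chr2R:20663057-20667951, wde at chr2R:6687924-6696430, Su(var)2-HP2 at chr2R:10494659-10505550 and HP1a at chr2L:8206171-8211122. The bounds given for Pof are also those of Mmp1, a gene with values of its own. On 3R were Su(var)3-9 at chr3R:11083566-11089180, Su(var)3-7 at chr3R:9090086-9097733 and HP1c at chr3R:18571350-18573278, and on the X chromosome were HP1b at chrX:8975096-8976779 and G9a at chrX:140011-148683. None of the 10 lies on chromosome 4. Each value covers a whole gene locus, that is the exons of all its transcripts, and 2 of these loci hold a second gene name. The Su(var)3-9 locus also carries eIF-2gamma, a translation initiation factor gene with which it shares 352 exon bases on the same strand in the Ensembl annotation of the dm6 genome (14.8% of its exon bases), so its level is that of both genes together. The egg locus also carries Lcp9, a larval cuticle protein gene, so the values given for egg below are those of this joint locus. The Ensembl annotation lists no overlap of Lcp9 with egg, and the part of Lcp9 in these values is not known here.

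The 10 genes spanned a wide range of levels, which FPKM, being per length, allows to be compared between genes. In GFP RNAi cells HP1a was the highest at 342 FPKM, above all but 3.53% of the loci tested, and the joint Su(var)3-9 and eIF-2gamma locus followed at 194 FPKM. HP1b, an HP1 paralogue found in euchromatin and heterochromatin, stood at 41.2 FPKM. The other 7 genes lay between 26.3 FPKM for egg and 9.02 FPKM for G9a, near the middle of all loci or below it. Across the 8 groups no gene varied by more than 1.71 times between its highest and lowest value (HP1c), and the Su(var)3-9 locus varied by 1.10 times. Without replicate values, neighbours in this order cannot be tested against each other.

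**Figure D1:**
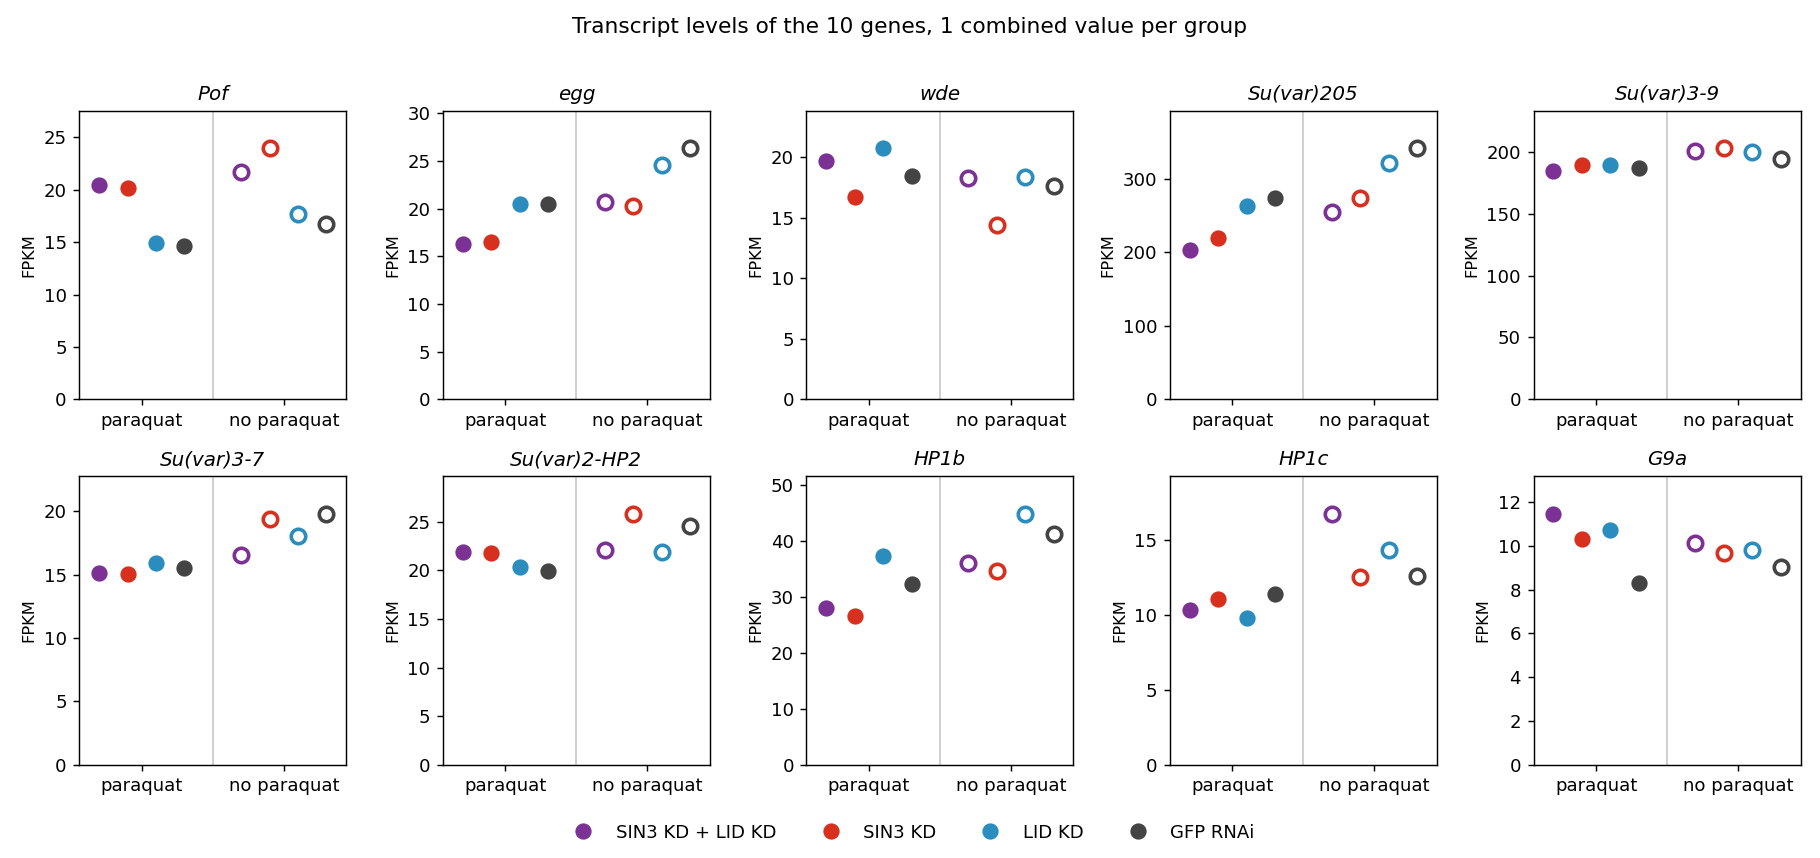
FPKM (y axis, from 0, its own scale for each gene) of the 10 genes in the 8 groups, 1 combined value per group, with stressed cells as filled points on the left and unstressed cells as open points on the right of each panel. Pof is higher in both groups with Sin3A dsRNA on each side of its panel, and HP1a, egg and HP1b are lower in them.

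Several measurements of the whole series bear on these values. lid was at 17.0 and 15.4 FPKM in stressed SIN3 KD + LID KD and LID KD cells and at 16.9 and 14.9 FPKM in the unstressed ones, against 35.8 to 43.0 FPKM in the 4 groups without lid dsRNA. Sin3A was barely lower, with 58.0 to 61.7 FPKM in the 4 groups that received Sin3A dsRNA and 62.0 to 67.9 FPKM in the 4 that did not, a log2 change of -0.12 that missed the threshold (limma, adjusted p = 0.0592), so its transcript level does little to check the SIN3 KD labels. According to the methods, knockdown was routinely checked by western blot or at the transcript level. The paper reports efficient knockdown of both, with a western blot for SIN3 and transcript levels for lid. Whether that blot came from the sequenced cultures is not given, and protein is not among the data used here. Of the 7 hemocyte and S2 marker loci found, 6 reached 1 FPKM (Hml did not), and of 8 loci marking neurons, muscle, germline or fat body, 2 did (elav and bam). Their summed level was 6.36 to 6.66 FPKM with Sin3A dsRNA and 5.42 to 5.83 FPKM without it, and elav, a neuronal gene, was called higher with Sin3A dsRNA (log2 change 0.50, limma, adjusted p = 0.00117). Its part in the changes described below was not tested. Lsp1alpha was at 0 in 5 groups, and no other of these 8 markers was at 0 except Act88F in stressed SIN3 KD + LID KD cells. Whether stressed and unstressed cells, or the dsRNA groups of 1 replicate, came from shared cultures is not given. If they did, the p-values below are too small.

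The first comparison asked how Sin3A dsRNA moved the 10 genes, over the 4 groups that received it against the 4 that did not. Pof rose, and HP1a, egg and HP1b fell by about equal amounts. The other 6 genes did not pass the test. The test was limma's moderated test of the 3 main effects on log2(FPKM + 0.1), with the Benjamini-Hochberg adjustment over all 8070 loci, and its error is the departure of the 8 group values from an additive pattern, not the spread between replicates. It called 4 of the 10 genes at adjusted p < 0.05, and 51.7% of all loci, so being called does not set these genes apart. It called 1 of the 10 higher, against 25.4% of loci, and 3 lower, against 26.4%.

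Pof, whose product stimulates chromosome 4 genes, was at 20.5 and 20.2 FPKM in stressed SIN3 KD + LID KD and SIN3 KD cells and at 21.7 and 24.0 FPKM in the unstressed ones, against 14.9 and 14.7 FPKM in stressed LID KD and GFP RNAi cells and 17.7 and 16.7 FPKM in the unstressed ones. All 4 groups with Sin3A dsRNA lay above all 4 without it, as was so in one direction or the other for 29.5% of loci. Pof was the only one of the 10 genes whose values separated in this way. The log2 change with Sin3A dsRNA was 0.43 (SE 0.047, limma, adjusted p = 0.000628), or 1.35-fold, and 25% of the loci tested had a larger change in size. In the pair without lid dsRNA or stress the ratio was 1.44, the only ratio of SIN3 KD to GFP RNAi cells past 1.4-fold among the 10 genes, against 24.6% of loci.

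The annotation places 284 exon bases of Pof, 14.1% of them, opposite the matrix metalloproteinase gene Mmp1 on the other strand, and in the deposited tables both genes have the same locus bounds. The described library preparation makes cDNA of both strands and names no strand marking, so reads of the shared stretch cannot be told apart. Mmp1 was at 90.8 and 73.0 FPKM in stressed SIN3 KD + LID KD and SIN3 KD cells and at 116 and 66.6 FPKM in the unstressed ones, against 76.0 and 73.0 FPKM in stressed LID KD and GFP RNAi cells and 89.2 and 75.2 FPKM in the unstressed ones. Its groups overlapped, and its log2 change with Sin3A dsRNA of 0.12 did not pass the test (limma, adjusted p = 0.430).

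HP1a, the founding member of the family, was at 204 and 219 FPKM in stressed SIN3 KD + LID KD and SIN3 KD cells and at 256 and 274 FPKM in the unstressed ones, against 263 and 274 FPKM in stressed LID KD and GFP RNAi cells and 322 and 342 FPKM in the unstressed ones. Within each of the 4 matched pairs the group with Sin3A dsRNA was the lower, while the pooled values overlapped, since stressed cells were lower as well. The log2 change was -0.33 (SE 0.031, limma, adjusted p = 0.000352), or 0.79-fold. The pairs lay close together, between -0.37 and -0.32 on the log2 scale. CG8419, opposite 12 of its exon bases (1.1%), was called in the other direction, with a change of 0.29 (adjusted p = 0.0162).

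The H3K9 methyltransferase gene egg had 16.3 and 16.5 FPKM in stressed SIN3 KD + LID KD and SIN3 KD cells and 20.7 and 20.3 FPKM in the unstressed ones, against 20.5 FPKM in both stressed LID KD and stressed GFP RNAi cells and 24.6 and 26.3 FPKM in the unstressed ones. It was lower with Sin3A dsRNA in 4 of 4 pairs, with a log2 change of -0.32 (SE 0.037, limma, adjusted p = 0.00083). An antisense RNA, CR44067, lies opposite 629 of its exon bases (16.0%), and its log2 change of -0.39 was also called (limma, adjusted p = 0.00436). The part of either in the value of the other was not tested.

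HP1b stood at 28.0 and 26.5 FPKM in stressed SIN3 KD + LID KD and SIN3 KD cells and at 36.1 and 34.6 FPKM in the unstressed ones, against 37.3 and 32.4 FPKM in stressed LID KD and GFP RNAi cells and 44.9 and 41.2 FPKM in the unstressed ones. Again every one of the 4 pairs was lower with Sin3A dsRNA, and the log2 change was -0.31 (SE 0.039, limma, adjusted p = 0.00101). For HP1a, egg and HP1b, 33.2% to 35.3% of loci had a larger change in size. No gene of the annotation overlaps HP1b.

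The 6 genes that were not called by limma with Sin3A dsRNA had log2 changes between -0.13 and 0.14. For wde, the cofactor of Egg, the change was -0.13 (95% interval -0.26 to -0.003, adjusted p = 0.080), lower in 4 of 4 pairs, and for G9a it was 0.14 (-0.02 to 0.30, adjusted p = 0.124), higher in 4 of 4. The intervals of Su(var)3-7, Su(var)2-HP2 and the Su(var)3-9 locus reached no further than -0.20 and 0.21, and that of HP1c was wider, at -0.20 to 0.31. The median log2 change of the 10 genes was -0.03, against -0.01 over all loci tested.

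**Figure D2:**
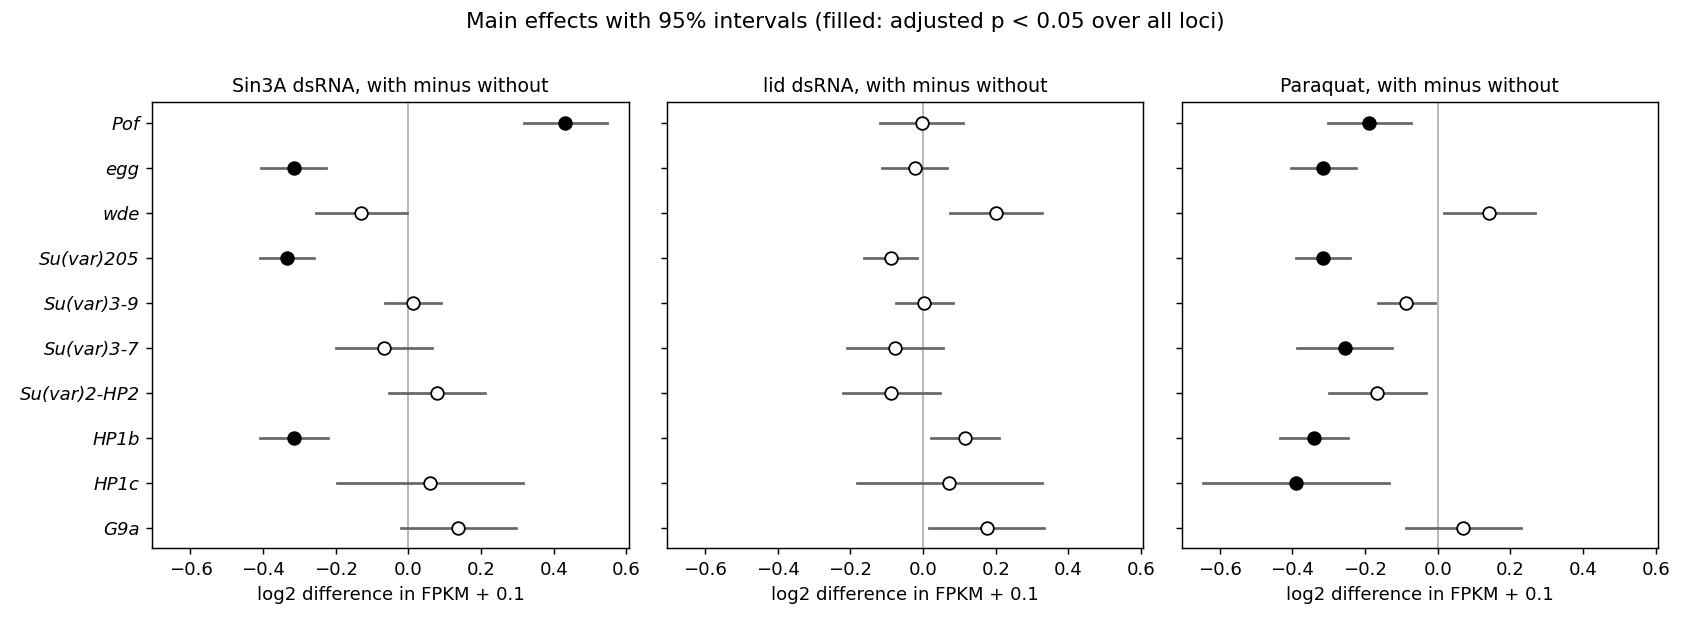
Log2 changes of the 10 genes by treatment (Sin3A dsRNA, lid dsRNA, paraquat) (x axis, log2 difference in FPKM + 0.1, groups with the factor minus groups without it), with 95% intervals from limma as lines and filled points where the adjusted p over all loci was below 0.05. With Sin3A dsRNA 1 gene was called higher and 3 lower, with lid dsRNA none was called, and with paraquat 6 were called, all lower.

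Pof and HP1a both act on chromosome 4, so the loci of that chromosome were set beside Pof as a description. In stressed SIN3 KD + LID KD and SIN3 KD cells, where Pof was at 20.5 and 20.2 FPKM, the median log2 ratio of 72 chromosome 4 loci to GFP RNAi cells was -0.36 and -0.29, and in the unstressed ones, with Pof at 21.7 and 24.0 FPKM, it was -0.39 and -0.28. It was -0.05 and 0.05 in stressed LID KD and GFP RNAi cells and -0.13 in unstressed LID KD cells. Chromosome 4 medians were thus lowest in the 4 groups where Pof was highest, and where HP1a and egg were lower than in the matched groups. The medians did not follow the levels of HP1a and egg over all groups. HP1a and egg were at 274 and 20.5 FPKM in stressed GFP RNAi cells, with a median of 0.05. They were at 274 and 20.3 FPKM in unstressed SIN3 KD cells, with a median of -0.28. Over the 76 chromosome 4 loci tested, limma called 49 lower and 4 higher with Sin3A dsRNA (69.7%). Of all loci, 51.7% were called and 26.4% were called lower. The median log2 change of the chromosome 4 loci was -0.29, against -0.14 for X and 0.02 to 0.03 for the 4 large autosomal arms. Whether any of these changes follows from another was not tested.

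**Figure D3:**
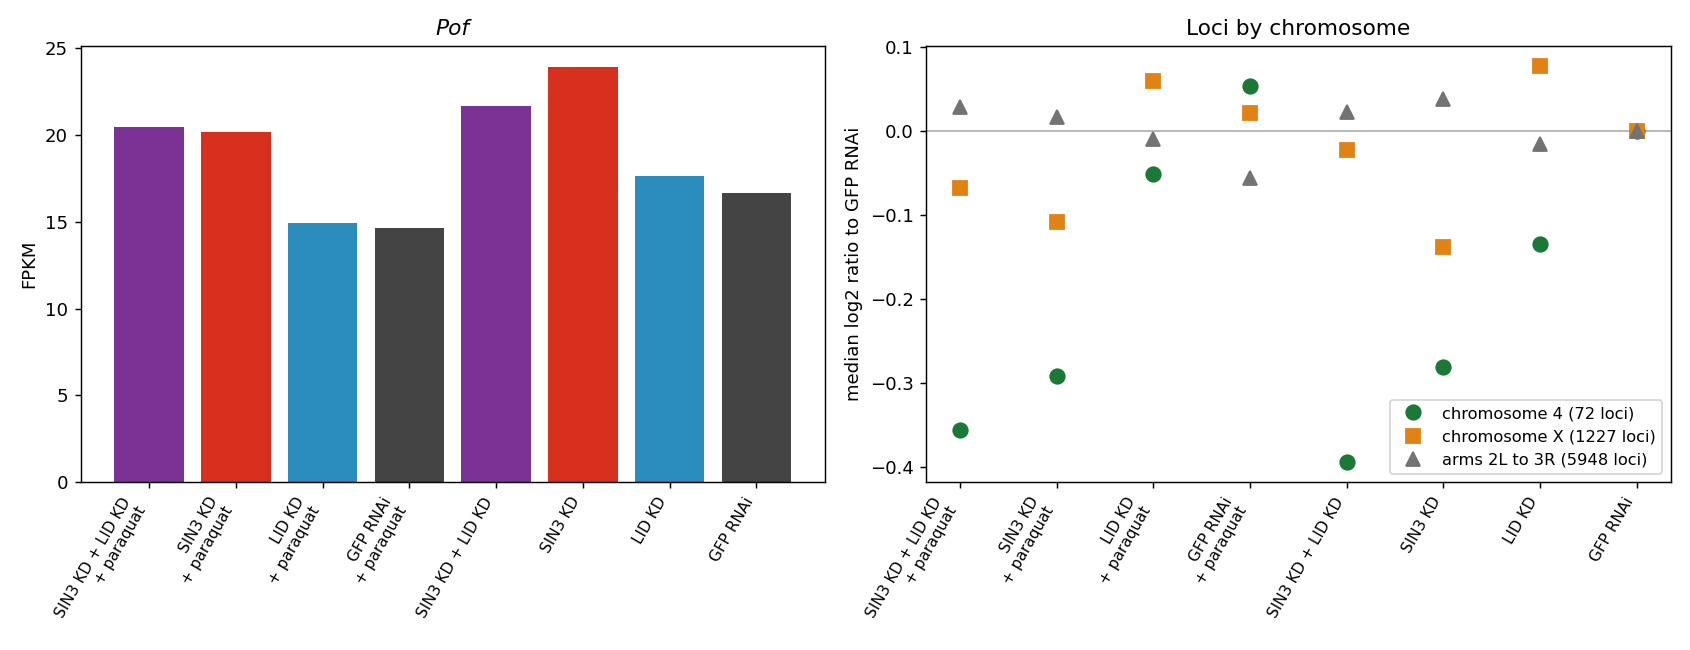
Left, FPKM of Pof (y axis, bars from 0, 1 combined value per group) in the 8 groups. Right, median log2 ratio to unstressed GFP RNAi cells (y axis) of the loci of chromosome 4, of X and of the arms 2L to 3R with at least 1 FPKM in all 8 groups, in the same order of groups. The 4 groups with Sin3A dsRNA have the tallest bars and chromosome 4 medians between -0.39 and -0.28.

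The loci with the group pattern most like that of Pof, by Pearson's r of log2(FPKM + 0.1) over the 8 groups, were CG6197 (0.993), Tap42 (0.991), a regulator of protein phosphatases, and CG12929 (0.989). CG6197 and CG12929 lie on 2R, as Pof does, and Tap42 on 2L. CG12929 was the one with the larger swing, at 50.9 and 53.0 FPKM in stressed SIN3 KD + LID KD and SIN3 KD cells and 64.1 and 78.8 FPKM in the unstressed ones, against 25.0 and 23.9 FPKM in stressed LID KD and GFP RNAi cells and 33.2 and 36.0 FPKM in the unstressed ones. Of 7286 loci compared, 143 had an r above 0.95 with Pof, so the pattern was not rare. Among the 10 genes, egg and HP1a were the pair with the highest r, at 0.984, and HP1b followed both with 0.941 and 0.900. Within each group the values of all genes come from the same libraries, and these correlations are descriptions.

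The second comparison asked the same of lid dsRNA. None of the 10 genes was called by limma, against 4.37% of all loci. An unadjusted p under 0.05 was found for 4 of them, and for 1887 of all 8070 loci. Of these 4 genes, 3 were higher with lid dsRNA and 1, HP1a, was lower. No gene had groups that did not overlap, which 2.47% of loci had.

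The largest of these changes was that of wde, which had 19.7 and 20.7 FPKM in stressed SIN3 KD + LID KD and LID KD cells and 18.2 and 18.4 FPKM in the unstressed ones, against 16.7 and 18.5 FPKM in stressed SIN3 KD and GFP RNAi cells and 14.4 and 17.6 FPKM in the unstressed ones. It was higher in 4 of 4 pairs, with a log2 change of 0.20 (95% interval 0.08 to 0.33, limma, adjusted p = 0.085). The lowest value of wde, in unstressed SIN3 KD cells, and the highest, in stressed LID KD cells, differed by 1.44 times.

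G9a, an H3K9 methyltransferase of euchromatin, had 11.5 and 10.7 FPKM in stressed SIN3 KD + LID KD and LID KD cells and 10.1 and 9.78 FPKM in the unstressed ones, against 10.3 and 8.29 FPKM in stressed SIN3 KD and GFP RNAi cells and 9.67 and 9.02 FPKM in the unstressed ones. It too was higher in 4 of 4 pairs, and its values with and without lid dsRNA overlapped. Its log2 change was 0.18 (95% interval 0.02 to 0.33, adjusted p = 0.176 by limma). HP1b had a change of 0.12 (0.02 to 0.21, adjusted p = 0.143), higher in 4 of 4 pairs, and HP1a one of -0.09 (-0.16 to -0.02, adjusted p = 0.150), lower in 4 of 4.

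For Pof the log2 change with lid dsRNA was 0.00 (95% interval -0.12 to 0.11), and for egg it was -0.02 (-0.11 to 0.07), so both intervals leave out changes of the size seen with Sin3A dsRNA. The interval was widest for HP1c, from -0.18 to 0.33. When interactions were added to the fit, which leaves 1 residual degree of freedom, wde, HP1a and HP1b were called, with 22.9% of all loci.

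The third comparison was that of paraquat. Transcripts of 6 of the 10 genes fell, namely HP1a, HP1b, egg, Su(var)3-7, Pof and HP1c, and 0 rose, where 35.6% of all loci were called and 20.7% were called lower. Without the SIN3 KD + paraquat group the count was 3, and Su(var)3-7, Pof and HP1c were no longer called. The 3 HP1 genes, HP1a, HP1b and HP1c, were all among the 6. The other 4, wde, G9a, Su(var)2-HP2 and the Su(var)3-9 locus, were not called by limma. The median log2 change of the 10 genes was -0.22, against -0.01 over all loci tested. Because these are bulk cultures, fewer cells in a state that expresses a gene and less of its RNA per cell cannot be told apart.

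The 3 genes that fell with Sin3A dsRNA fell with paraquat by similar amounts. HP1a had 204 to 274 FPKM with paraquat and 256 to 342 FPKM without it, a log2 change of -0.32 (SE 0.031, limma, adjusted p = 0.00134). HP1b ran from 26.5 to 37.3 FPKM with paraquat and from 34.6 to 44.9 FPKM without it, a change of -0.34 (SE 0.039, adjusted p = 0.00224), and egg from 16.3 to 20.5 FPKM with paraquat and from 20.3 to 26.3 FPKM without it, a change of -0.31 (SE 0.037, adjusted p = 0.00242). All 4 pairs of each of these genes were lower with paraquat, and the pooled ranges overlapped. Pof, in contrast, fell with paraquat while it rose with Sin3A dsRNA, with 14.7 to 20.5 FPKM in stressed and 16.7 to 24.0 FPKM in unstressed cells. Its log2 change was -0.19 (SE 0.047, adjusted p = 0.0244), lower in 4 of 4 pairs.

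HP1c, an HP1 paralogue of euchromatin that is found at active genes, had 10.3, 11.1, 9.81 and 11.4 FPKM in stressed SIN3 KD + LID KD, SIN3 KD, LID KD and GFP RNAi cells, against 16.8, 12.5, 14.4 and 12.6 FPKM in the unstressed ones. The stressed and unstressed values did not overlap, as for 15.4% of loci, and the differences were wider in the groups with lid dsRNA. The log2 change was -0.39 (SE 0.106, limma, adjusted p = 0.0314). The gene CG17141 on the other strand shares 160 exon bases with HP1c (16.2%), and its own log2 change with paraquat was -0.34 (adjusted p = 0.00481), while with Sin3A dsRNA CG17141 was called higher and HP1c was not called. The calls of Pof and HP1c are the weaker ones: each was lost in 6 of the 8 fits that left out 1 group, with adjusted p up to 0.0885 for Pof (without LID KD) and 0.0967 for HP1c (without SIN3 KD + LID KD + paraquat).

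Su(var)3-7, a zinc finger protein that binds HP1a, had 15.1, 15.0, 15.9 and 15.5 FPKM in stressed SIN3 KD + LID KD, SIN3 KD, LID KD and GFP RNAi cells, against 16.5, 19.4, 18.0 and 19.8 FPKM in the unstressed ones. The stressed values lay within a narrow band below all the unstressed ones, and 15.4% of loci separated in one direction or the other. Its log2 change was -0.26 (SE 0.055, limma, adjusted p = 0.0145), which became 0.0625 without the SIN3 KD + paraquat group. CG8449, on the other strand over 693 of its exon bases (13.7%), had a change of -0.13 (adjusted p = 0.059).

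The gene of HP2, Su(var)2-HP2, a further HP1a partner, had 21.9, 21.8, 20.4 and 20.0 FPKM in stressed SIN3 KD + LID KD, SIN3 KD, LID KD and GFP RNAi cells, against 22.1, 25.8, 21.9 and 24.6 FPKM in the unstressed ones. Its stressed and unstressed ranges barely separated, and its log2 change of -0.17 missed the threshold (95% interval -0.30 to -0.03, limma, adjusted p = 0.0574). It was called when SIN3 KD + LID KD was left out (-0.21, adjusted p = 0.0369 by limma). The joint Su(var)3-9 and eIF-2gamma locus had 185, 190, 190 and 187 FPKM in the stressed groups in the same order, against 201, 203, 200 and 194 FPKM in the unstressed ones. These ranges did not overlap either, as for 15.4% of all loci, and the change was the small one of -0.09 (-0.17 to -0.01, adjusted p = 0.0809).

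The 2 remaining genes were not lower with paraquat. wde was higher in 4 of 4 pairs, with a log2 change of 0.14 (95% interval 0.02 to 0.27, limma, adjusted p = 0.0775), and it was called after centring on the median (0.18, adjusted p = 0.0439) and without GFP RNAi (0.18, adjusted p = 0.0471). G9a was higher in 3 of 4, with 0.07 (-0.09 to 0.23, adjusted p = 0.426). The exception for G9a was the pair of GFP RNAi groups, at 8.29 FPKM with paraquat and 9.02 FPKM without it.

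The design also allowed a test of whether an effect depended on another factor. In the fit with the 3 pairwise interactions limma called none of the 10 genes in any of them, against 0.0248% of loci for Sin3A with lid dsRNA, 0.0248% for Sin3A dsRNA with paraquat and 3.37% for lid dsRNA with paraquat. An unadjusted p under 0.05 was found for 3 genes, all for lid dsRNA with paraquat, and the share of all loci below it is not given here. HP1c fell more with paraquat where lid dsRNA was present, by a log2 difference of -0.46 (SE 0.061, adjusted p = 0.0647). Its 2 stressed groups with lid dsRNA, at 10.3 and 9.81 FPKM, were the lowest of the 8, and the unstressed ones, at 16.8 and 14.4 FPKM, the highest. The other 2 were Su(var)2-HP2 (0.21, adjusted p = 0.0865) and Su(var)3-7 (0.21, adjusted p = 0.102), which differed less between stressed and unstressed cells in the groups with lid dsRNA. For Pof the Sin3A effect did not differ detectably with lid dsRNA (-0.11, SE 0.076, adjusted p = 0.431) or with paraquat (0.05, SE 0.076, adjusted p = 0.738). Each such test rests on 1 residual degree of freedom.

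Ratios between single groups, which were not tested here, were counted past 1.4-fold in 13 comparisons. In SIN3 KD + LID KD + paraquat cells against unstressed GFP RNAi cells 3 of the 10 genes were past it, all lower, where 37.6% of loci were past it. They were HP1a at 0.60, egg at 0.62 and HP1b at 0.68 of the unstressed GFP RNAi level. The same 3 genes passed in SIN3 KD + paraquat against unstressed GFP RNAi cells, at 0.64, 0.63 and 0.64 (34.0% of loci). These comparisons share the GFP RNAi libraries. HP1c passed in stressed against unstressed SIN3 KD + LID KD cells, at 0.62 (13.6% of loci), and in stressed against unstressed LID KD cells, at 0.68 (11.6% of loci). With Pof in unstressed SIN3 KD cells, these made 9 cases, and in the other 8 comparisons none of the 10 genes was past 1.4-fold. Of all loci, 12.9% were past it in stressed against unstressed GFP RNAi cells and 18.2% in stressed against unstressed SIN3 KD cells. The share was 16.8%, 28.9% and 8.23% in LID KD + paraquat, SIN3 KD + LID KD and LID KD cells against unstressed GFP RNAi cells. Against stressed GFP RNAi cells it was 29.0%, 25.2% and 7.75% in stressed SIN3 KD + LID KD, SIN3 KD and LID KD cells.

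The levels of other heterochromatin genes, from a list that overlaps none of the 10, were tested in the same fit. Of 33 symbols 29 were found, at 31 loci, and 29 of these loci reached 1 FPKM. With Sin3A dsRNA 17 fell, 2 rose and 10 were not called, with a median log2 change of -0.18, where 51.7% of all loci were called and 26.4% fell. With paraquat 15 fell, 1 rose and 13 were not called, with a median of -0.16, where 35.6% of all loci were called and 20.7% fell. With lid dsRNA none was called by limma, with a median of -0.04, where 4.37% of all loci were called. Here 6 had an unadjusted p under 0.05, as did 1887 of all 8070 loci.

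Among the 10 with the smallest p, 9 fell with both Sin3A dsRNA and paraquat and 1 rose with both. piwi, the gene of a nuclear small RNA-guided silencing protein, had log2 changes of -0.74 with Sin3A dsRNA and -0.23 with paraquat (limma, adjusted p = 0.000153 and 0.0134). The genes of HP4 and HP5, HP1a-binding proteins, changed by -0.48 and -0.26 with Sin3A dsRNA and by -0.41 and -0.14 with paraquat. Lhr, a hybrid incompatibility gene whose product binds HP1a, changed by -0.36 and -0.44, and D1, a satellite DNA binding protein gene, by -0.46 and -0.60. Incenp and borr, of the chromosomal passenger complex of mitosis, changed by -0.71 and -0.66 and by -0.53 and -0.65. Of the chromatin assembly factor that works at replication, Caf1-180's and Caf1-105's transcripts changed by -0.43 and -0.41 and by -0.33 and -0.58. The one that rose was Dp1, the gene of a multi-KH-domain nucleic acid binding protein, by 0.25 and 0.18.

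Genes of S phase moved with the same groups. Their list was chosen with earlier results of these data known. It holds Mcm7, CycE and dap, which the paper reports as affected by the knockdowns in these same data. Of 11 loci for DNA replication and the G1 to S transition, 10 fell with Sin3A dsRNA (median log2 change -0.46), 3 with lid dsRNA (-0.14) and 11 with paraquat (-0.62), where 51.7%, 4.37% and 35.6% of all loci were called in either direction. Their summed level was 296 and 325 FPKM in stressed SIN3 KD + LID KD and SIN3 KD cells and 431 and 449 FPKM in the unstressed ones, against 368 and 404 FPKM in stressed LID KD and GFP RNAi cells and 522 and 568 FPKM in the unstressed ones. Of the 6 hemocyte and S2 marker loci tested, 4 fell with Sin3A dsRNA, crq rose (log2 change 0.28, limma, adjusted p = 0.00233) and eater was not called, while with paraquat 5 fell and crq was not called. Over the 7 loci found the summed level was 328 and 350 FPKM in stressed SIN3 KD + LID KD and SIN3 KD cells and 481 and 501 FPKM in the unstressed ones, against 398 and 474 FPKM in stressed LID KD and GFP RNAi cells and 617 and 698 FPKM in the unstressed ones. Both sums were thus lower with Sin3A dsRNA and with paraquat in every matched pair, as HP1a, egg and HP1b were. Their part in the changes of these 3 genes was not tested.

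**Figure D4:**
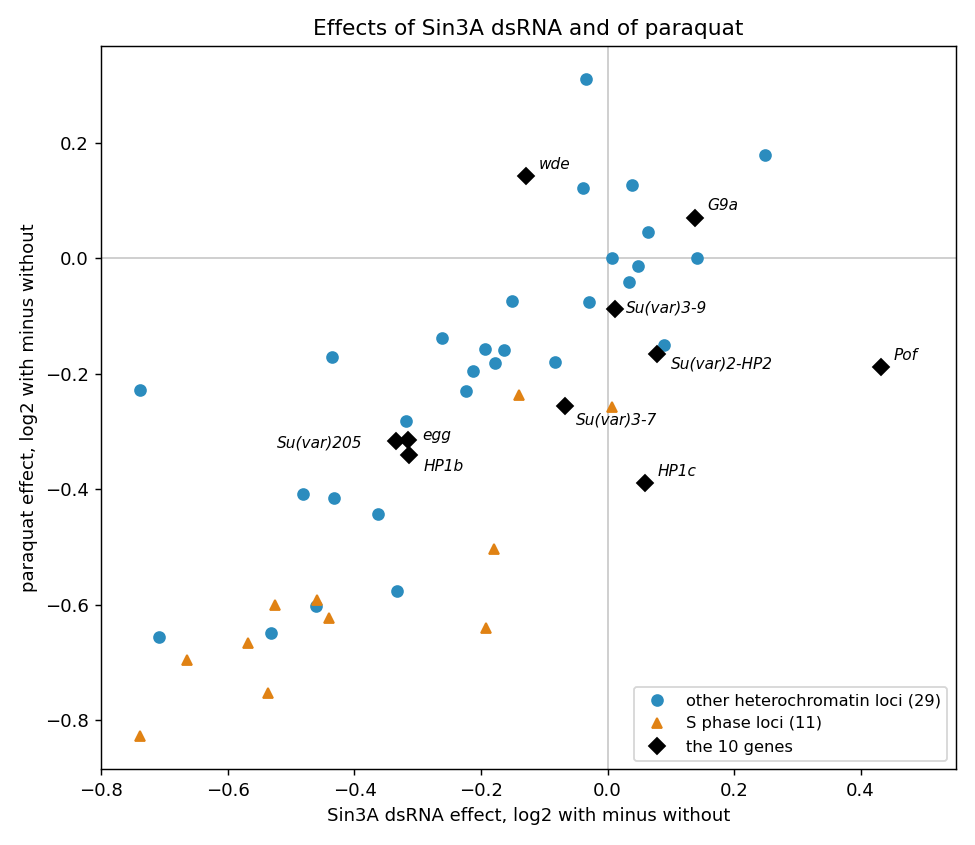
Log2 change with Sin3A dsRNA (x axis) and with paraquat (y axis), groups with the factor minus groups without it, for the 10 genes (diamonds), 29 other heterochromatin loci (circles) and 11 S phase loci (triangles). Pof lies at 0.43 and -0.19, apart from HP1a, egg and HP1b, which lie together near -0.3 on both axes, and the S phase loci run down to -0.74 and -0.83.

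The gene most variable of the 10, HP1c, had its group pattern shared by fewer loci than Pof. By the same measure the most similar were dnk, a deoxynucleoside kinase gene (r = 0.970), CG4603 (0.970) and Ddx1, a DEAD-box RNA helicase gene (0.964), and 7 of 7286 loci had an r above 0.95. dnk was at 70.4, 69.7, 65.2 and 71.2 FPKM in stressed SIN3 KD + LID KD, SIN3 KD, LID KD and GFP RNAi cells, against 102, 85.9, 88.9 and 82.7 FPKM in the unstressed ones. As for HP1c, its lowest value was that of stressed LID KD cells and its highest that of unstressed SIN3 KD + LID KD cells.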

How the data were processed

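RNA-seq of S2 cells was deposited as 7 tables, each setting 1 group against unstressed GFP RNAi. Each FPKM value, computed by the authors with Cuffdiff on dm3, combines the 3 replicates of a group, and the GFP RNAi values were identical in all 7 tables. The authors' fold changes, test statistics, p-values and q-values are also in the tables and were not used. With no replicate values, the 3 factors (Sin3A dsRNA, lid dsRNA, paraquat) were fitted as main effects to log2(FPKM + 0.1) of the 8 values with limma 3.58.1 in R 4.3.3 (trended variance, 4 residual degrees of freedom), over the 8070 loci with at least 1 FPKM in at least 1 group, with Benjamini-Hochberg adjustment and a threshold of 0.05. Fold changes on this scale understate those of low genes. A fit with the 3 pairwise interactions had 1 residual degree of freedom. The main-effects fit was tested on simulated data with independent noise between groups, so that test does not cover shared cultures or interactions. Named were all 10 genes, their overlapping genes, the 10 other listed heterochromatin genes with the smallest p, and the 3 loci most correlated with Pof and with the most variable gene. Members and lists were chosen with earlier results of these data known. Exon overlaps are from the Ensembl annotation of dm6. The methods give an approximate depth per library but no reads behind single values, and describe a library preparation without strand marking.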

Additional observations from a re-analysis of the deposited data

How the results depend on the processing

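Pseudocounts of 1 and 0.01 FPKM, a filter of 1 FPKM in all 8 groups, no filter, centring on the median, variance without a trend, added interactions and leaving out each group in turn were tried. Over these, the log2 changes of single genes kept their direction and their side of the threshold in 415 of 450 cases, gained the call in 9 and lost it in 15. The sign turned in 11, in all of which the gene was called neither before nor after. One of these was the Su(var)3-9 change with Sin3A dsRNA after centring (-0.015). In the others 1 group was left out, which gave log2 changes with Sin3A dsRNA of -0.0033 to 0.028 for Su(var)3-9 and -0.039 to 0.14 for HP1c, and with lid dsRNA of -0.032 to 0.037 for Pof, -0.012 to 0.019 for Su(var)3-9 and -0.026 to 0.16 for HP1c. With Sin3A dsRNA 4 of the 10 genes were called throughout, except 5 with interactions (65.8% of all loci), when G9a joined. With lid dsRNA the count of 0 became 3 with interactions (22.9% of all loci). For paraquat it ran between 3 and 6 when 1 group was left out, the lowest without SIN3 KD + paraquat, when Pof, Su(var)3-7 and HP1c lost the call and 17.8% of all loci were called. It was 8 with interactions (57.1% of loci), when Su(var)3-9 and Su(var)2-HP2 joined. HP1c also lost it with no filter (adjusted p = 0.0504) and after centring (0.0528), while wde was called higher after centring (0.0439) and without GFP RNAi (0.0471). Without SIN3 KD + LID KD, Su(var)2-HP2 was called lower (limma, adjusted p = 0.0369) and HP1c was not called (0.0555). In the interaction fit, the filter of 1 FPKM in all 8 groups gave 1 call in place of 0, the lid dsRNA with paraquat difference of HP1c (-0.46, adjusted p = 0.0283). That fit has 1 residual degree of freedom, and the share of all loci it called under this filter is not given here. Of the 9 ratios past 1.4-fold, 0 were past 2-fold. No paired analysis was possible because each deposited column is 1 combined value per group, and for the same reason no single replicate could be left out. The reads behind a single value are not known here, so its counting error cannot be given.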
